A study of Homo sapiens with 30 samples.

Results

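Enzalutamide was given to MR49F cells, a prostate cancer line selected for resistance to it, in medium with full serum, and 6 of the 30 samples of the series hold this comparison. They are the 3 MR49F libraries labelled Vehicle and the 3 labelled Enzalutamide-Treated, chosen by the cell line and treatment labels and by nothing measured in them. The treated cells received 10 µM enzalutamide (MDV3100) and the controls 0.1% DMSO, both in RPMI-1640 with 10% fetal bovine serum, and both were harvested after 24 hours. All 6 cultures had first been kept for 96 hours without the drug. MR49F is a line derived from LNCaP cells after chronic enzalutamide treatment in castrated mice and carries the F877L mutation of the androgen receptor. It is 1 line of 1 origin, and the paper states that it was maintained in 10 µM enzalutamide. V16D, its castration-resistant parental line, was given the same treatments in 6 other samples, and no such maintenance is stated for it. A difference between the lines cannot be told apart from this earlier exposure. The remaining 18 samples are MR49F cells in serum stripped with charcoal, which is depleted of steroids, given vehicle, 1 nM dihydrotestosterone (DHT), enzalutamide, or other agents and combinations. The study calls the replicates biological and the labels describe wells plated in triplicate, so p-values measure the spread between these samples, which may be partly technical.

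The androgen receptor is a transcription factor that is activated by its ligands, testosterone and DHT. In luminal prostate cells it binds near genes of secretion, lipid metabolism and growth, such as KLK3, which encodes prostate-specific antigen, and raises their transcription, while other genes fall when it is active. Enzalutamide binds the ligand-binding domain of the receptor and blocks it, and F877L is a change in that domain.

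The libraries held 13170504 to 21154962 reads on genes, 76.1 to 77.8% of the reads that were placed on a gene, on several or on none. Levels are given in CPM, the counts scaled to a common library total with the TMM factor of the library, and a change is the log2 of the fold change of enzalutamide against vehicle with its standard error (SE). A gene was called when its adjusted p was at most 0.05 in edgeR's quasi-likelihood test with Benjamini-Hochberg adjustment over all genes tested. Of 12 luminal markers, KRT19 was at 2.99 to 5.58 CPM, and the others were at 173 CPM (EPCAM) to 1942 CPM (KLK3). Of the markers of other cell types, ONECUT2 and ENO2 of the neuroendocrine list were at 50.2 to 57.5 and 16.1 to 25.2 CPM, DST and ITGB4 of the basal list at 14.7 to 18.5 and 4.66 to 6.22 CPM, CD68 of leukocytes at 13.3 to 16.6 CPM and COL1A1 of fibroblasts at 6.72 to 7.96 CPM. The rest were at 4.73 CPM or less, and KRT17 and TP63 of basal cells, CDH5 of endothelium, COL1A2 of fibroblasts, INSM1 of neuroendocrine cells and CD3E, CD3D and MS4A1 of lymphocytes had a count of 0 in all 6 libraries. Vehicle replicate 1 stood apart from the others. The difference of its log2 levels from the mean of the other samples of its group had an SD of 0.284 over genes. The same SD was 0.171 to 0.248 in the other 5 libraries. Sample quality weights from limma gave it 0.248, against 0.710 to 1.88. One of its abundant short transcripts, MIR4461, was at 158547 FPKM, against 295237 to 372110 FPKM in the others. The count of each gene list is therefore given with and without it, as is each named gene whose call turned without it.

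In all, 1181 of 13927 genes tested were called (8.48%), of which 537 were higher (3.86%) and 644 lower (4.62%) with enzalutamide. With scaling by library totals alone, the split was 718 higher and 498 lower, with the median of all genes shifted from 0.01 to 0.04. Most of these changes were small: 214 were of at least 1.5-fold, 107 in each direction. In all 1181 the 3 vehicle samples and the 3 enzalutamide samples did not overlap in CPM, and neither did they in 4455 of all genes tested (32%). Without vehicle replicate 1, 2533 of 14226 genes were called (17.8%), 1132 higher (7.96%) and 1401 lower (9.85%). Of the 1181 genes, 1176 were called again, in the same direction, and 1357 were called only without that library. This gain depended on the test: DESeq2's Wald test called 1091 genes with all 6 samples and 1315 without vehicle replicate 1, and limma on log2(FPKM + 1) called 566 and 856. Leaving out vehicle replicate 2 gave 642 calls, vehicle replicate 3 gave 1722, and enzalutamide replicates 1, 2 and 3 gave 453, 455 and 406. A core of 367 genes, 148 higher and 219 lower, was called with all 6 samples and in each of the 6 fits that left out 1 library.

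**Figure D1:**
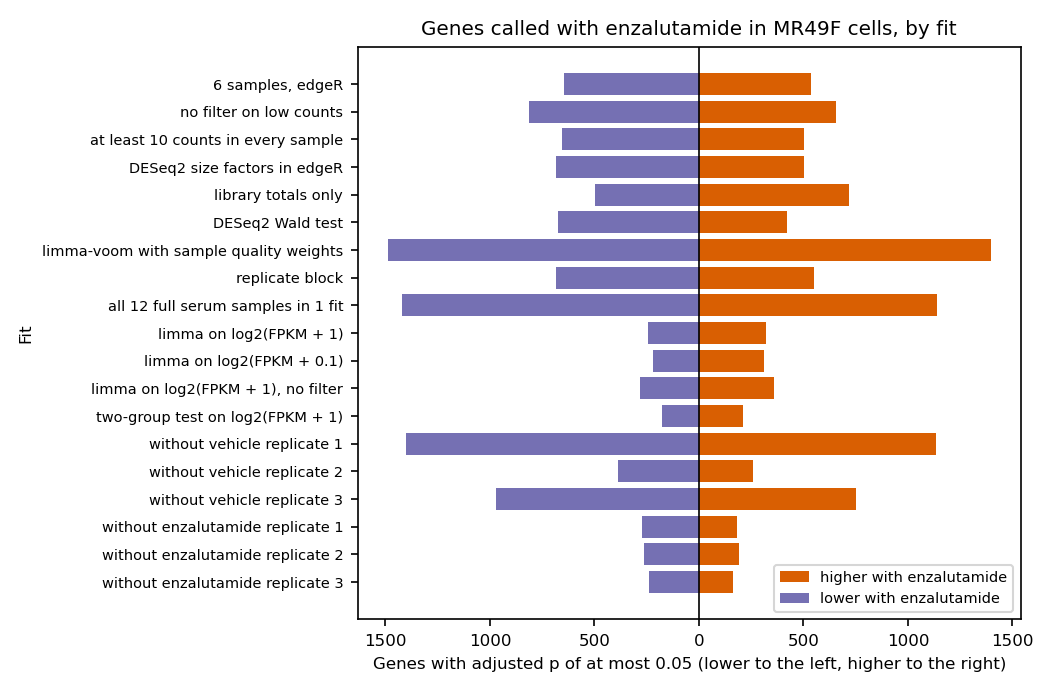
Number of genes called in MR49F cells in full serum under each fit, with genes lower with enzalutamide drawn to the left of 0 and genes higher to the right. The edgeR fit of all 6 samples gives 644 lower and 537 higher, and the fits without 1 sample run from 406 calls in all (without enzalutamide replicate 3) to 2533 (without vehicle replicate 1).

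The genes with the largest decreases were largely genes that DHT raised in stripped serum, and those with the largest increases were genes that DHT lowered. Each of the 12 genes with the largest decreases had a positive change with DHT, between 2.30 and 8.58 on the log2 scale, and each of the 12 with the largest increases a negative one, between -6.33 and -0.86. In FPKM, where 10 and 11 of them were tested, these changes were 1.48 to 5.055 and -4.04 to -0.90. The 24 were called in every fit that left out 1 library. TRPM8, a cold-sensing ion channel of the prostate epithelium (hg19 chr2:234826018-234928166), was at 31.25, 37.7 and 40.24 CPM in the vehicle samples and at 10.81, 10.79 and 10.46 CPM with enzalutamide. The 3 treated samples lay together, far below all 3 controls, and the change was -1.77 (SE 0.10, adjusted p = 2.63e-06). ST6GALNAC1, a sialyltransferase that caps O-glycans, was the most abundant of the 12. Its vehicle samples were at 264, 220 and 207 CPM and its treated samples at 82.1, 84.4 and 80.6 CPM, a change of -1.48 (SE 0.08, adjusted p = 2.46e-06). Vehicle replicate 1 was the highest of the controls, and without it the change was -1.38.

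Other genes of this set have roles in signalling and in the cell surface. SOCS2, an inhibitor of cytokine and growth hormone signalling, fell by 1.69 on the log2 scale (SE 0.16), MAF, a basic leucine zipper transcription factor, by 1.53 (SE 0.09), NPPC, the precursor of C-type natriuretic peptide, by 1.37 (SE 0.15), and MICAL1, an actin-oxidising enzyme, by 1.30 (SE 0.06). LAMA1, a laminin chain of basement membranes, was at 3.69, 5.53 and 5.88 CPM in the controls and at 1.38, 1.66 and 1.82 CPM with the drug. Its levels were among the lowest that the naming rule admitted, and the change was -1.62 (SE 0.21, adjusted p = 8.08e-04). The transcription factor TBX15, the collagen COL12A1, CCDC141 and the chondroitin sulfate enzyme CSGALNACT1 were at 6.03 to 14.9 CPM in the controls and had the largest decreases, of -2.10 to -1.94.

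Among the increases, IGFBP3, a secreted protein that binds insulin-like growth factors (hg19 chr7:45951844-45961473), was by far the most abundant. It was at 352.5, 325 and 331 CPM in the vehicle samples and at 683, 678 and 665 CPM with enzalutamide, a change of 1.005 (SE 0.05, adjusted p = 1.11e-06). The 3 treated samples lay close together and far above all controls. In V16D cells the change was 1.00, and the difference between the lines was -0.003 (SE 0.064, adjusted p = 0.99 for the interaction of line and drug). PLD1, a phospholipase that makes phosphatidic acid, showed the largest increase and was scarce in the controls, at 1.63, 1.88 and 2.21 CPM, against 6.62, 6.07 and 5.93 CPM with the drug, a change of 1.70 (SE 0.15, adjusted p = 5.66e-05). ABCA1, which exports cholesterol from cells, rose by 1.503 (SE 0.19) and IL1RN, the natural antagonist of interleukin 1 receptors, by 1.32 (SE 0.20). SDC4, a heparan sulfate proteoglycan, rose by 1.04 (SE 0.07), and PKIB, an inhibitor of protein kinase A, by 1.34 (SE 0.09). RNF144B, a ubiquitin ligase, rose by 1.04 (SE 0.08), and MATN2, PLXDC1, LRRTM3, LRRN1 and LPPR1 by 1.04 to 1.26. The exons of LRRN1 overlap those of SUMF1 on the other strand, whose level was 3.29 times higher, and how HTSeq was told to use strand is not given in the sources used here, so its value is uncertain.

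**Figure D2:**
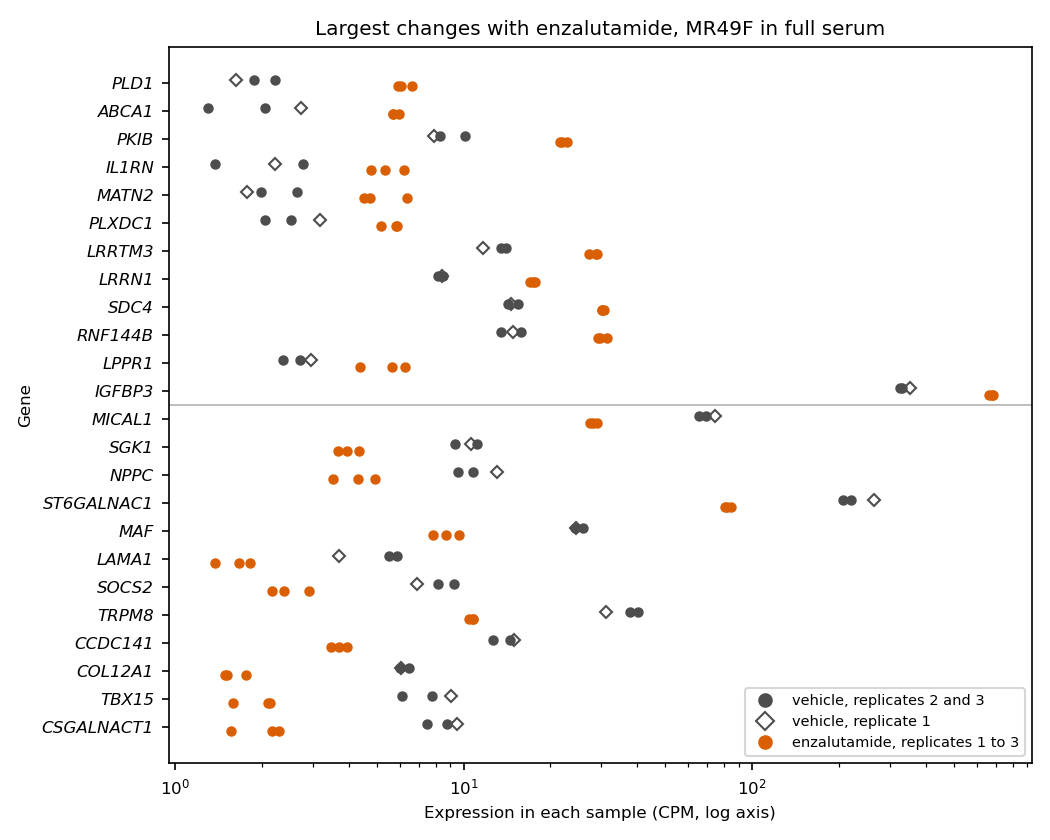
CPM in each of the 6 samples (log axis) of the 12 genes with the largest increases (above the line) and the 12 with the largest decreases (below it), with vehicle replicate 1 as an open diamond. In each gene, as the naming rule required, the 3 enzalutamide samples lie apart from the 3 vehicle samples, as for IGFBP3 at 665 to 683 against 325 to 352.5 CPM.

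Genes known to be induced by androgen were mostly lower with enzalutamide, by modest amounts. Of a list of 34 such genes, 33 were tested, 21 fell, 1 rose and 11 were not called, and their median change was -0.34, against 0.01 over all genes tested (4.62% of which fell). Without vehicle replicate 1, 24 fell and 2 rose, with a median of -0.38, and 9.85% of all genes fell. In fits without the other libraries, between 16 and 21 fell. Summed over the list, the level was 12968 to 13058 CPM in the 3 vehicle samples and 10284 to 10473 CPM in the 3 enzalutamide samples. The median deviation of vehicle replicate 1 from the other vehicle samples over this list was -0.05 on the log2 scale.

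FKBP5, which fell, and KLK3, which was not called, are described first. Their promoters are given here because both hold the hexamer AGAACA or its reverse complement TGTTCT, the core of the element that steroid receptors such as the androgen receptor bind. The windows run from 250 bases before to 50 after the transcription start (RefSeq, GRCh38.p14), at chr6:35728534-35728833 on the minus strand for FKBP5 and chr19:50854665-50854964 on the plus strand for KLK3. They are written 5′ to 3′ along the gene, with the hexamer in capitals.
FKBP5: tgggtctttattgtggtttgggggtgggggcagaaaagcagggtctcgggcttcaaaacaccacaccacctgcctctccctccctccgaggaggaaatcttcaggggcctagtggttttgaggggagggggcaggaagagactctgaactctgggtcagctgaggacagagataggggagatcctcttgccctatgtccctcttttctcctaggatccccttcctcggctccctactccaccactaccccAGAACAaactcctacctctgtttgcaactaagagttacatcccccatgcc
KLK3: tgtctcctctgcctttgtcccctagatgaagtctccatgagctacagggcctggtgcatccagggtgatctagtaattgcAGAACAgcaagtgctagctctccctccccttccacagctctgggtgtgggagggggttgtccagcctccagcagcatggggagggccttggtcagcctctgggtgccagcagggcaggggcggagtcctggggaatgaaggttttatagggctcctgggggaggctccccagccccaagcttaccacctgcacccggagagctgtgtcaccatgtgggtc
The hexamer starts at position 1 from the start site in FKBP5 and at position -170 in KLK3. Both strands were searched, and 5192 of 35116 RefSeq promoters of this length held it (14.8%). Of the 24 tested genes of the list with a promoter in the table, 4 held it (16.7%): 1 of the 13 that fell (7.69%), and 3 of the 11 that were not called or rose (27.3%), where PMEPA1 and NANS are the others. A match describes these letters and is not a measured binding site.

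FKBP5, a cochaperone of steroid receptors (hg19 chr6:35541362-35696360), was at 1141, 1039 and 1004 CPM in the vehicle samples and at 456, 452 and 442.5 CPM with enzalutamide. The treated samples were below every control by more than 2-fold, and the change was -1.24 (SE 0.05, adjusted p = 8.85e-07). SPDEF, a transcription factor of secretory epithelia (hg19 chr6:34505579-34524110), had a change of nearly the same size. It was at 213, 207 and 196 CPM in the controls and at 85.7, 90.2 and 88.8 CPM with the drug, a change of -1.22 (SE 0.05, adjusted p = 8.85e-07). ACSL3, which activates long-chain fatty acids, was the most evenly measured, at 1132, 1144 and 1144 CPM against 657.5, 651 and 659 CPM, a change of -0.80 (SE 0.04, adjusted p = 1.49e-06). NDRG1 fell by 0.95 (SE 0.06) and C1orf116 by 0.82 (SE 0.06). STEAP4, a metalloreductase, was called at a low level, 2.66, 4.31 and 3.44 CPM against 0.393, 1.245 and 0.841 CPM, and its change of -2.04 had an SE of 0.30.

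A middle group with changes between -0.56 and -0.27 was called in each fit without 1 library. It held the elongation factor ELL2 (-0.53, SE 0.04), ZBTB10 (-0.56, SE 0.05), the exporter ABCC4 (-0.41, SE 0.04), LRIG1 (-0.50, SE 0.05), sorbitol dehydrogenase SORD (-0.38, SE 0.04), the kinase CAMKK2 (-0.38, SE 0.05) and MPHOSPH9 (-0.27, SE 0.05). The further genes that fell lost their call when some single libraries were left out. TMPRSS2, a serine protease of the cell surface, was at 527, 499 and 492 CPM against 434, 448 and 449 CPM. Its change of -0.19 (SE 0.04, adjusted p = 0.0255) was not called without vehicle replicate 2 or any 1 of the 3 enzalutamide libraries, nor by limma on FPKM (adjusted p = 0.102). TPD52 (-0.42, SE 0.085) and EAF2 (-0.34, SE 0.07) were also called in the 6 samples, as was CENPN (-0.16, SE 0.04, adjusted p = 0.0491), whose call was lost in 5 of the 6 fits without 1 library.

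KLK3 (hg19 chr19:51358171-51364020) was at 1942, 1704 and 1744 CPM in the vehicle samples and at 1729, 1616 and 1720 CPM with enzalutamide. The groups overlapped, with vehicle replicate 1 the highest of all 6, and the change was -0.09 (95% interval -0.21 to 0.03, adjusted p = 0.341). Without that library it was -0.03. The interval leaves room for a decrease of 0.21 but for none of the size seen in FKBP5. Its neighbours on chromosome 19 gave similar values: KLK2 was at 531, 564 and 556 CPM against 506, 516 and 501 CPM (-0.12, 95% interval -0.21 to -0.02, adjusted p = 0.12), and KLK4 was at 174, 140 and 130 CPM against 149, 150 and 147 CPM (0.00, 95% interval -0.185 to 0.19, adjusted p = 0.982). For both the call turned without vehicle replicate 1, where KLK2 was lower by -0.14 (adjusted p = 1.32e-04) and KLK4 higher by 0.13 (adjusted p = 0.0102). SLC45A3, a transporter known as prostein, was likewise called only without that library among the fits that left out 1 sample (-0.14 with adjusted p = 0.105, and -0.195 with adjusted p = 5.97e-07). PMEPA1, an inhibitor of TGF-β signalling, had a change of -0.06 (95% interval -0.15 to 0.035). NANS had a change of -0.23 (adjusted p = 0.0743), and was called without that library (-0.13, adjusted p = 0.00842). PTGER4, GNMT, HERC3, PART1 and MED28 were not called in either, with changes between -0.23 and 0.24 with all 6. The exons of GNMT overlap those of PEX6 on the other strand, at 3.41 times its level. Those of PART1 overlap PDE4D, at 4.18 times its level, so both values are uncertain. The exception in direction was STEAP2, a metalloreductase, at 866, 859 and 882 CPM against 994.5, 980 and 1014 CPM, which rose by 0.20 (SE 0.04, adjusted p = 0.0128). Its change with DHT in stripped serum was -0.12 (adjusted p = 0.28), and -0.18 in FPKM (adjusted p = 0.00865).

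**Figure D3:**
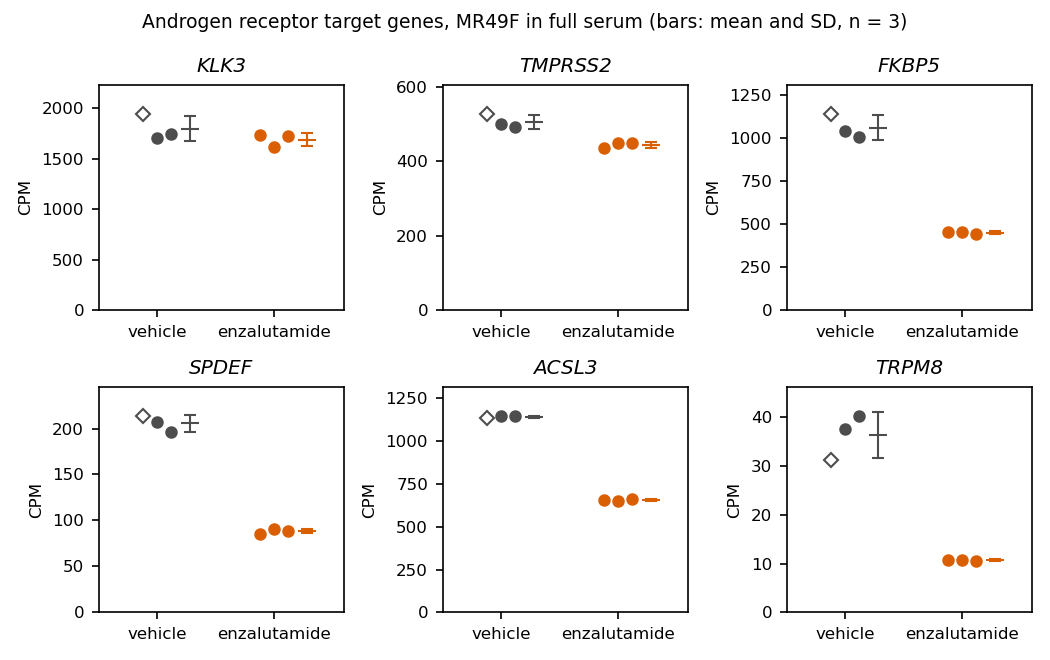
CPM of 6 androgen-induced genes in each vehicle and enzalutamide sample (vehicle replicate 1 as an open diamond), with the mean and SD of the 3 samples beside them. The enzalutamide samples of FKBP5, SPDEF, ACSL3 and TRPM8 lie well below all their controls, those of TMPRSS2 lie slightly below theirs, and those of KLK3 (1616 to 1729) overlap them (1704 to 1942).

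The same genes moved much more in the parental V16D cells. Of the 33, 31 fell there and none rose, with a median of -1.58, where 19.3% of all genes tested fell and 18.2% rose. The difference between the lines was called for 28 of the 33, against 6.95% of all 14471 genes tested in the 12 samples of both lines (interaction of line and drug, edgeR). It was 2.75 (SE 0.06) for SLC45A3, 2.65 (SE 0.06) for KLK2, 2.33 (SE 0.06) for PMEPA1, 2.28 (SE 0.06) for TMPRSS2 and 1.79 (SE 0.06) for KLK3, each time with the smaller change in MR49F. The gap was smaller for FKBP5, which fell by 2.09 in V16D and 1.24 in MR49F (difference 0.84, SE 0.06). SPDEF fell by 1.251 in V16D, and the difference of 0.02 (SE 0.06, adjusted p = 0.891) was within its error. STEAP4, NANS, TPD52 and MED28 also had no called difference, with adjusted p values of 0.523, 0.936, 0.656 and 0.505.

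**Figure D4:**
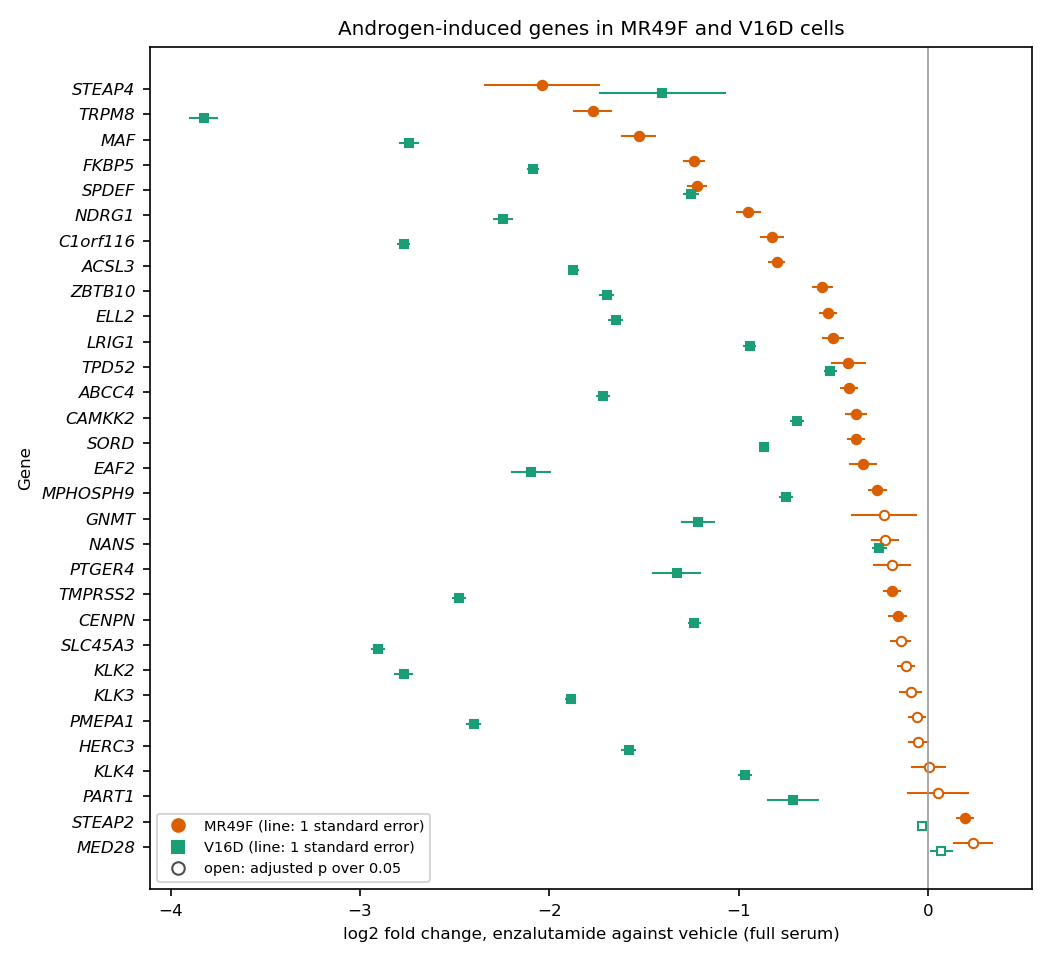
log2 fold change with enzalutamide in full serum for 31 of the 33 androgen-induced genes tested, in MR49F cells (circles) and V16D cells (squares), with 1 standard error and open symbols where the adjusted p was over 0.05. In V16D cells SLC45A3, KLK2 and PMEPA1 lie at -2.90 to -2.40, while in MR49F they lie at -0.14 to -0.06, and SPDEF lies at the same place in both.

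In stripped serum, the same list moved the other way. With enzalutamide alone in MR49F cells, 21 of the 27 genes tested rose and none fell, with a median of 1.04 (4.38% of all genes rose and 2.87% fell). The counts deposited for stripped serum hold far fewer reads on genes than those for full serum, 5.13 to 7.66% of the reads assigned, and how strand was used in counting them is not given. Genes overlapped on the other strand by a gene at least 10 times higher had a median log2 ratio of raw counts of -2.69 between stripped and full serum, against -3.68 for genes with no such overlap. Whether these counts were taken from the other strand was not settled, so both stripped-serum comparisons were repeated on FPKM values with limma. With enzalutamide, 27 of 30 rose and none fell, with a median of 0.99, where 19.1% of all genes rose and 19.3% fell. With DHT, 32 of 34 rose and none fell in counts, with a median of 2.89 (19.4% of all genes rose and 18.1% fell). In FPKM, 32 of 34 rose and STEAP2 and MED28 fell, with a median of 2.54 (28.6% of all genes rose and 43% fell). FKBP5 changed by 2.57 with enzalutamide and by 5.70 with DHT in stripped serum, against -1.24 in full serum, and its stripped-serum changes in FPKM were 2.21 and 5.29. NDRG1 was at -0.08 with enzalutamide (adjusted p = 0.78) and 3.31 with DHT in stripped serum, and at -0.06 and 3.20 in FPKM. SPDEF, TPD52 and NANS, which DHT raised, were also not called with enzalutamide in counts (0.36, 0.14 and 0.35). In FPKM they were called higher, by 0.18, 0.14 and 0.36. The stripped-serum comparisons with DHT and with enzalutamide share their 3 vehicle libraries, and neither shares a library with full serum.

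Among genes that DHT changed in stripped serum, the median change with enzalutamide in full serum was of the opposite sign in each group, and larger in groups with a larger change with DHT. Genes called with DHT were grouped by the size and direction of the change that DHT gave in stripped serum, in libraries that are not among the 6, and genes not called with DHT were in no group. Of 151 tested genes that DHT raised over 4-fold, 96 fell with enzalutamide in full serum (63.6%) and 2 rose, with a median of -0.38. Of 384 raised 2 to 4-fold, 161 fell (41.9%) and 3 rose, with a median of -0.20, and of 1565 raised under 2-fold, 224 fell (14.3%) and 4 rose, with a median of -0.095. In the other direction, of 111 genes that DHT lowered over 4-fold, 55 rose (49.5%) and none fell, with a median of 0.43. Of 554 lowered 2 to 4-fold, 125 rose (22.6%) and 1 fell, with a median of 0.20, and of 1256 lowered under 2-fold, 143 rose (11.4%) and 11 fell, with a median of 0.09. The background was 4.62% falling and 3.86% rising, with a median of 0.01.

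These shares were higher without vehicle replicate 1, while the medians moved little. In the groups raised and lowered over 4-fold, 115 of 153 fell and 66 of 112 rose, and the medians were -0.39 and 0.43. Over all genes in that fit, 9.85% fell and 7.96% rose. With the groups formed from FPKM values instead, 67 of the 94 genes raised over 4-fold fell (median -0.44) and 33 of the 42 lowered over 4-fold rose (median 0.51). The groups formed from counts had larger medians in V16D, at -0.96 for genes raised over 4-fold and 0.74 for genes lowered over 4-fold. Of the former, 138 of 148 fell, and of the latter, 88 of 111 rose. Over all genes in V16D, 19.3% fell and 18.2% rose. Seen from the other side, 481 of the 607 genes that fell with enzalutamide in full serum and were tested with DHT rose with DHT and 12 fell, and of 481 that rose, 323 fell with DHT and 9 rose. In FPKM, 555 of 625 that fell rose with DHT and 26 fell, and of 510 that rose, 457 fell with DHT and 20 rose. Over all genes tested with DHT, 19.4% rose and 18.1% fell in counts, and 28.6% rose and 43% fell in FPKM.

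**Figure D5:**
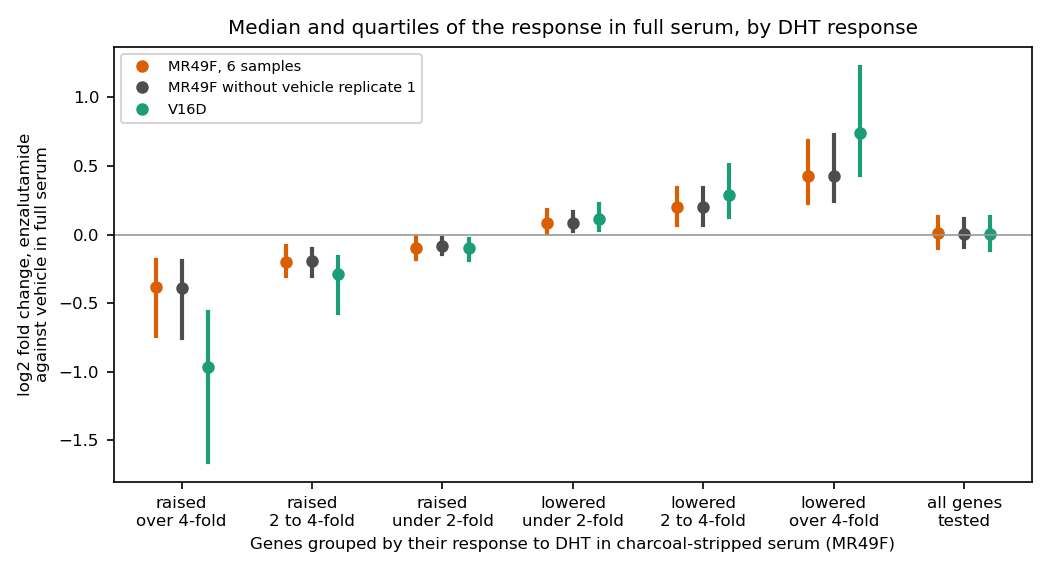
Median and quartiles of the log2 fold change with enzalutamide in full serum for genes grouped by their response to DHT in stripped serum, for all 6 MR49F samples, for MR49F without vehicle replicate 1, and for V16D. The MR49F medians run from -0.38 in genes raised over 4-fold to 0.43 in genes lowered over 4-fold, and the V16D medians from -0.96 to 0.74.

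The members of these groups named next were picked for the largest called changes against the DHT direction. Genes that moved with DHT could not be picked, so these examples add nothing to the shares above. PLD1, ABCA1 and DAB1, an adaptor of reelin signalling, had the largest increases among genes that DHT lowered over 4-fold. DAB1 changed by 1.45 (SE 0.28), at 0.46 to 1.16 CPM against 1.965 to 2.52 CPM. INHBA, a subunit of activin, was among those lowered 2 to 4-fold, with a change of 1.30 (SE 0.30) at 0.37 to 0.44 CPM against 0.79 to 1.09 CPM. TESK2 (0.67, SE 0.07) and GOLGA8B (0.595, SE 0.14) rose among those DHT lowered under 2-fold, and GOLGA8B has near-identical copies that can share its reads. Among genes that DHT raised by less than 4-fold, CDC42EP3, an effector of the GTPase CDC42, fell by 1.055 (SE 0.06), DUSP27 by 1.225 (SE 0.16), LOC285847 by 1.11 (SE 0.21), PRKCH by 0.575 (SE 0.08) and CYTH1 by 0.56 (SE 0.07). MAK, a kinase, fell by 1.01 (SE 0.09). DHT changed it by 0.65 in counts, which set its group, but by 2.46 in FPKM, over 4-fold. Its exons overlap those of TMEM14B on the other strand, at 4.83 times its level. The exons of TESK2 overlap those of TOE1 in this way, and those of INHBA an antisense RNA. The calls of DAB1, INHBA, GOLGA8B and LOC285847 did not hold in every fit without 1 library.

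The androgen-repressed list moved in part. Of 13 genes, 9 were tested, 3 rose, 1 fell and 5 were not called, with a median of 0.32, where 3.86% of all genes rose and 4.62% fell. FOLH1, which encodes prostate-specific membrane antigen, was at 417, 412 and 412 CPM in the controls and at 515, 517 and 516 CPM with the drug. All treated samples were higher, and the change was 0.32 (SE 0.04, adjusted p = 6.32e-04). CAMK2N1, an inhibitor of a calcium-dependent kinase, rose by 0.64 (SE 0.095) and OPRK1, the kappa opioid receptor, by 0.74 (SE 0.12). The gene that fell was PEG10, a retrotransposon-derived gene (-0.34, SE 0.04), which DHT raised by 1.98 in stripped serum (1.80 in FPKM). MYC was not called (-0.10, 95% interval -0.25 to 0.06), nor were MET and CXCR7. DHT raised MYC too in stripped serum, by 0.71 (0.56 in FPKM). Of the 8 members tested with DHT in FPKM, 3 had a positive change (PEG10, MYC and UGT2B11, the last of 2.24) and 5 a negative one. The name of the list thus did not hold for all its members in these cells. UGT2B11, at 0.33 to 1.07 CPM, was called only without vehicle replicate 1 (-0.93 with adjusted p = 0.105, and -1.07 with adjusted p = 0.0408). Without that library, 3 genes of the list rose and 3 fell, where 7.96% of all genes rose and 9.85% fell.

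The glucocorticoid receptor shares many targets with the androgen receptor, and its list split. Of 10 tested, 4 fell, 2 rose and 4 were not called, with a median of -0.22, where 4.62% of all genes fell and 3.86% rose. The counts were 6 and 2 without vehicle replicate 1, where 9.85% of all genes fell and 7.96% rose. SGK1, a kinase of salt transport, was at 10.6, 9.34 and 11.2 CPM against 3.67, 3.94 and 4.34 CPM, the groups lying well apart, a change of -1.36 (SE 0.12, adjusted p = 5.42e-05). NFKBIA, the inhibitor of NF-κB, fell by 0.53 (SE 0.05) and the clock gene PER1 by 0.37 (SE 0.06). TSC22D3, also known as GILZ, rose by 0.48 (SE 0.06), and DHT changed it by -2.07 (-2.03 in FPKM). CEBPD fell by 0.50 and MT2A rose by 0.27, both chosen for mention after their values were seen, to complete the count. Steroid synthesis and reduction had 10 genes tested, of which 2 rose and none fell, with and without vehicle replicate 1: AKR1C2, from 1.63 to 2.29 CPM up to 3.13 to 4.59 CPM (0.91, SE 0.20, adjusted p = 0.0182), and AKR1C1 (1.05, SE 0.29, adjusted p = 0.0478). These are near-identical genes whose reads can be split between them, and neither call held in every fit without 1 library. STS (-0.22, 95% interval -0.435 to -0.01) and SRD5A1 (0.19, 95% interval -0.04 to 0.42) were not called.

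Lipid synthesis genes fell in part. Of 12 fatty acid genes, 6 fell, 1 rose and 5 were not called, where 4.62% of all genes fell and 3.86% rose, with a median of -0.13 and a summed level of 8359 to 8912 CPM in the controls against 6955 to 7106 CPM. ACSL3 led them, followed by ELOVL5, an elongase, at 718, 674.5 and 675 CPM against 445.5, 450 and 453 CPM (-0.62, SE 0.04, adjusted p = 1.29e-05). ACACA, the acetyl-CoA carboxylase that commits carbon to fatty acids, fell by 0.30 (SE 0.04) and ACLY, which supplies its acetyl-CoA, by 0.25 (SE 0.04). In the fit without vehicle replicate 1, 6 fatty acid genes fell and 2 rose, where 9.85% of all genes fell and 7.96% rose. Of 24 cholesterol genes, 4 fell and 1 rose, with a median of -0.04. TM7SF2, a sterol reductase, rose by 0.45 (SE 0.05). Of the cholesterol genes, 10 fell and 1 rose without vehicle replicate 1, and without 1 of the other libraries 1 to 5 fell.

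Some proliferation genes were lower. Of 34 DNA replication genes, 11 fell and 1 rose, with a median of -0.135, and of 26 mitosis genes, 7 fell and none rose, with a median of -0.12, where 4.62% of all genes fell. The remaining 22 and 19 were not called. The numbers that fell were 20 and 15 without vehicle replicate 1, where 9.85% of all genes fell. Without 1 of the other libraries, 1 to 11 and 0 to 8 fell, so the count hung on the libraries used. With all 6, 29 of 34 and 24 of 26 of the changes were below 0, as were 6644 of the 13927 over all genes tested. FEN1, a flap endonuclease, was at 172, 172 and 171 CPM against 144, 144 and 145 CPM, a change of -0.25 (SE 0.04, adjusted p = 0.00393). The replication helicase subunits MCM7 (-0.23, SE 0.04) and MCM5 (-0.31, SE 0.06) and the licensing factor CDC6 (-0.25, SE 0.05) were alike. MKI67, the marker of cycling cells, was at 945, 771 and 728 CPM in the controls and at 597, 610 and 590 CPM with the drug. Vehicle replicate 1 was the highest sample by far, and the change was -0.44 (SE 0.08, adjusted p = 0.00696) with it and -0.33 without it. The mitotic genes KIF20A, TPX2 and UBE2C fell by 0.28, 0.27 and 0.26, and the exons of KIF20A overlap those of BRD8 and CDC23 on the other strand. Fewer cycling cells and less RNA per cell cannot be told apart in bulk RNA. Of 9 replication-dependent histones, 3 fell (HIST1H2BK, HIST1H1E and HIST1H2BD) and none rose, and 3 fell without vehicle replicate 1, in libraries made from polyadenylated RNA.

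Stress pathways changed in part. Of 21 genes of the ATF4 amino acid response, 3 rose and none fell, with a median of 0.11, where 3.86% of all genes rose. In all, 8 rose and none fell without vehicle replicate 1, where 7.96% of all genes rose, with 1 to 5 in the other fits without 1 library. DDIT4, an inhibitor of mTOR signalling, was at 198, 176 and 189 CPM against 232, 239 and 241 CPM (0.34, SE 0.05, adjusted p = 0.00217), and the amino acid transporters SLC7A5 (0.47, SE 0.09) and SLC7A11 (0.28, SE 0.07) rose. SLC3A2, their partner chain, had a change of 0.21 (95% interval 0.07 to 0.35, adjusted p = 0.0682), and was called without vehicle replicate 1 (0.13, adjusted p = 0.0046). In V16D, 10 genes of this list fell and 2 rose, where 19.3% of all genes fell and 18.2% rose. Of 17 genes of protein folding in the endoplasmic reticulum, all 17 fell in V16D. In MR49F 4 fell and 1 rose, with a median of -0.16, where 4.62% of all genes fell and 3.86% rose. The gene that rose was EDEM1, which directs misfolded glycoproteins to degradation, at 178, 198 and 207 CPM against 241.5, 245 and 251 CPM (0.34, SE 0.06), while it fell by 0.17 in V16D. MANF, PDIA4 and HERPUD1 fell by 0.29, 0.21 and 0.215, and the 4 calls were lost in each fit without 1 of the enzalutamide libraries. Without vehicle replicate 1, 9 genes of this list fell and 2 rose, where 9.85% of all genes fell and 7.96% rose. Of 10 heat shock genes, 2 fell, the cochaperone BAG3 (-0.35, SE 0.07) and the chaperone HSPA8 (-0.25, SE 0.06), and none rose. When vehicle replicate 1 was left out, 5 fell and none rose. Over all genes, 4.62% fell with all 6 samples and 9.85% without that library. HSPH1 had a change of -0.18 (adjusted p = 0.0846), and was called without that library (-0.24, adjusted p = 4.83e-10). HSPE1, which overlaps HSPD1, was not called.

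Among the remaining lists, most members were not called, and over all genes 3.86% rose and 4.62% fell (7.96% and 9.85% without vehicle replicate 1). Of 14 immediate early genes, the nuclear receptor NR4A1 fell, from 25.3 to 27.2 CPM down to 14.1 to 15.7 CPM (-0.84, SE 0.07, adjusted p = 5.42e-05), and JUNB rose (0.28, SE 0.06), although JUNB overlaps HOOK2 on the other strand. BTG2 (0.21, adjusted p = 0.0606) and DUSP1 (-0.28, adjusted p = 0.0803) were not called. Both were called without vehicle replicate 1 (0.26 with adjusted p = 7.43e-04, and -0.31 with adjusted p = 0.0314), where 2 genes of the list rose and 2 fell. Of 17 hypoxia and glycolysis genes, EGLN3, an oxygen-sensing hydroxylase, rose by 0.65 (SE 0.09) and LDHA fell by 0.18 (SE 0.04), and PDK1 was not called. Without vehicle replicate 1, 1 rose and 2 fell, among them SLC2A1 (-0.15, adjusted p = 0.0207, against -0.12 and adjusted p = 0.197 with all 6). Of 15 p53 targets, 3 rose and 1 fell, and 3 rose and 2 fell without vehicle replicate 1. TP53INP1 was at 268, 285 and 294 CPM against 427, 428 and 426 CPM, its groups far apart (0.60, SE 0.05, adjusted p = 2.46e-05), and GDF15 (0.33, SE 0.07) and ZMAT3 (0.215, SE 0.06, adjusted p = 0.0496) rose while the death receptor TNFRSF10B fell by 0.27 (SE 0.06). Of 16 interferon-stimulated genes, only RSAD2 was called, at 0.46 to 0.74 CPM against 1.03 to 1.57 CPM (adjusted p = 0.0443), with an overlap of CMPK2 at 7.34 times its level. It was called in no fit without 1 library other than vehicle replicate 1, where 1 gene of the list rose and 1 fell, and OAS1, IFI6 and IFI44 were not called.

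Matrix, transport and drug-handling genes gave single large changes within lists that otherwise moved little. Of 31 collagens, laminins and integrins, 5 rose and 3 fell, with a median of 0.09, where 3.86% of all genes rose and 4.62% fell. These counts were 9 and 5 without vehicle replicate 1, where 7.96% of all genes rose and 9.85% fell. FN1, fibronectin, was at 971, 930 and 900 CPM against 1226, 1245 and 1210 CPM (0.39, SE 0.04, adjusted p = 2.89e-04) and LAMA3 rose by 0.32 (SE 0.05), whereas COL12A1 and LAMA1 were among the largest decreases. Of 10 prostate ion channels, TRPM8 and KCNMA1, a potassium channel, fell and none rose. KCNMA1 was at 71.8, 72.1 and 71.4 CPM against 45.5, 46.3 and 45.95 CPM, each group within 1 CPM (-0.64, SE 0.05, adjusted p = 1.58e-05), and STIM1 was not called. Without vehicle replicate 1, 3 channels fell, the third being TRPM4 (-0.32, adjusted p = 2.37e-05), which had a change of -0.24 with all 6 (adjusted p = 0.0864). Of 16 genes of the xenobiotic and antioxidant response, the exporter ABCC1 fell from 274 to 295 CPM down to 166 to 170 CPM (-0.78, SE 0.05, adjusted p = 4.01e-06). CYP1A2 (0.67, SE 0.16, adjusted p = 0.0305) and TXNRD1 (0.25, SE 0.07, adjusted p = 0.0438) rose, and TIPARP was not called (-0.30, adjusted p = 0.0606). Without vehicle replicate 1, TIPARP was called (-0.34, adjusted p = 0.00511), and 3 genes of the list rose and 2 fell.

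Most cell identity markers tested were not called. Over all genes 4.62% fell and 3.86% rose, and 9.85% and 7.96% without vehicle replicate 1. Of 12 luminal markers, 3 fell, among them KRT18 (-0.34, SE 0.04) and KRT8 (-0.26, SE 0.04), and HOXB13 rose by 0.18 (SE 0.04). KRT8 and KRT18 overlap on opposite strands. Of the luminal list, 5 fell and 2 rose without vehicle replicate 1. Of the neuroendocrine list, 5 of 14 genes were tested and 1, ENO2, an enolase, rose (0.36, SE 0.09, adjusted p = 0.0352), while SYP, ONECUT2 and POU3F2 were not called. None of the 3 basal genes tested (ITGB4, DST, NGFR), the 3 endothelial genes (VWF, CLDN5, PECAM1) or the 2 leukocyte genes (LYZ, CD68) was called with all 6 samples. VWF, at 0.813, 1.33 and 2.29 CPM against 0.59, 0.519 and 0.747 CPM, had a change of -1.21 (adjusted p = 0.0717), and was called without vehicle replicate 1 (-1.46, adjusted p = 3.95e-04). The counts of the basal, neuroendocrine, fibroblast and leukocyte lists were the same without that library. Of the fibroblast list, 4 of 11 genes were tested and LUM, a proteoglycan of connective tissue, rose from 0.59, 1.55 and 1.45 CPM to 3.87, 4.26 and 3.13 CPM (1.596, SE 0.26, adjusted p = 0.00376). ACTA2, COL1A1 and PDGFRB were not called, COL1A2 was at 0, and the list summed to 10.5 to 12.6 CPM in the controls against 13.2 to 13.9 CPM.

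Most genes called in MR49F moved the same way in V16D. Of 638 genes that fell in MR49F and were tested in V16D, 557 fell there and 7 rose, with medians of -0.30 and -0.33 in the 2 lines, where 19.3% of all genes fell in V16D. Of 526 that rose, 389 rose there and 26 fell, with medians of 0.34 and 0.29, where 18.2% of all genes rose. In stripped serum, by edgeR, 147 of 566 genes that fell in full serum rose with enzalutamide and 6 fell, and 79 of 495 that rose in full serum fell and 17 rose. In FPKM, 332 of 592 that fell rose and 43 fell, and 261 of 514 that rose fell and 65 rose. Over all genes in stripped serum, 4.38% rose and 2.87% fell by edgeR, and 19.1% rose and 19.3% fell in FPKM. A few genes went opposite ways in the 2 lines: 33 were called in both with opposite signs and a called difference, 26 of them higher in MR49F. GRIN3A, a glutamate receptor subunit, rose by 0.29 (SE 0.05) from a mean of 171 CPM in MR49F and fell by 1.78 in V16D. TENM1, a teneurin of cell adhesion, rose by 0.15 from 784 CPM and fell by 1.59 in V16D. TARP, the T cell receptor gamma reading frame that prostate cells transcribe, rose by 0.39 and fell by 3.43 in V16D, and TMEFF2, a membrane protein, rose by 0.36 and fell by 1.31. CHST2, a sulfotransferase, fell by 0.66 in MR49F and rose by 0.73 in V16D. These were chosen by the size of the difference after their values were seen, and none of them is a member of the androgen-induced list. TENM1 was called with counts but not with FPKM values, where its change was -1.76, of opposite sign.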

How the data were processed

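RNA was sequenced from MR49F and V16D cells as strand-specific poly(A) libraries. Per the submitters' processing notes, reads were mapped to hg19 with TopHat2 2.0.9 and quantified with Cufflinks 2.1.1 or HTSeq. The authors deposited whole-number counts per gene (23710 genes, not normalized) and FPKM values per transcript, which were summed here by gene symbol. How HTSeq was told to use strand is not given in the sources used here. Reads that HTSeq placed on no gene or on several, 22.2 to 23.9% of those listed in the 6 samples, were left out of library sizes and tests. Depth was 13170504 to 21154962 reads on genes per sample, so a gene at 1 CPM rests on few reads.

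Counts were filtered with filterByExpr (minimum count 10, minimum total 15), normalized by TMM and tested with edgeR 4.0.16 (quasi-likelihood, group means, R 4.3.3) with Benjamini-Hochberg adjustment over all genes. The main fit used the 3 vehicle and 3 enzalutamide samples, and was repeated without vehicle replicate 1. The difference between lines was the interaction term in the 12 full serum samples. V16D, DHT and stripped serum comparisons were fitted alone, on 6 samples each. Alternatives used DESeq2 1.42.0, limma 3.58.1 on log2(FPKM + 1) of genes of at least 1 FPKM in 3 samples, and a pseudocount of 0.1. The calculations were tested on simulated data with the same spread in each library and changed genes of at least 50 counts on average. They were thus not tested on a deviating sample such as vehicle replicate 1. At 1.25-fold, the fit of 6 samples recovered 34 of 50 changed genes and the interaction 10 of 50. At 2-fold, both recovered 50 of 50. CPM are counts on genes scaled to a common total with the TMM factor. Gene positions come from GENCODE on GRCh37 by symbol, which may not be the annotation used for counting.

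Named genes were the 12 with the largest change in each direction among genes with adjusted p of at most 0.05 with and without vehicle replicate 1, no overlap between groups and at least 5 CPM. Added to these were all tested androgen-induced and androgen-repressed genes and 4 of each other list (25 lists in all) by lowest adjusted p. Last came, for each group by DHT response, the 3 genes with the largest change against the DHT direction. These had to be called with and without vehicle replicate 1, and genes that moved with DHT could not enter. Some genes that count in the lists are not reported here. The members and lists were chosen with earlier results of these data known. Promoter sequences are from RefSeq.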

Additional observations from a re-analysis of the deposited data

Results flagged for a closer look

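Each value here is the log2 change with enzalutamide in MR49F minus that in V16D, both in full serum, and stands out because the difference between the lines was itself called by the interaction term in edgeR over the 12 samples. It was called for 68 of the 155 genes picked by the naming rule. Many of the 155 were chosen for their response in MR49F, so this share is not comparable with that of all genes.

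Among androgen-induced genes, the differences called were all positive, which means a smaller decrease or an increase in MR49F. Large ones were those of SLC45A3 (2.75), KLK2 (2.645), PMEPA1 (2.33), TMPRSS2 (2.28), TRPM8 (2.05), C1orf116 (1.94), KLK3 (1.79), EAF2 (1.75) and HERC3 (1.52). Intermediate values were found for ABCC4 (1.29), NDRG1 (1.29), MAF (1.20), ZBTB10 (1.13), PTGER4 (1.13), ELL2 (1.11), CENPN (1.07), ACSL3 (1.07), GNMT (0.97) and KLK4 (0.96). Smaller ones were those of FKBP5 (0.84), PART1 (0.76), SORD (0.48), MPHOSPH9 (0.47), LRIG1 (0.43), CAMKK2 (0.30) and STEAP2 (0.22). GNMT and PART1 have the overlaps on the other strand given above.

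Of the genes with the largest decreases in MR49F, CCDC141 (4.29), ST6GALNAC1 (2.93), TBX15 (1.56), MICAL1 (1.02) and SOCS2 (0.64) fell further in V16D, while COL12A1 (-1.25) fell further in MR49F. Of the genes with the largest increases, PLXDC1 (1.27), PKIB (0.98) and RNF144B (0.41) had the higher change in MR49F, and ABCA1 (-1.15), MATN2 (-1.09) and LRRN1 (-0.91) the higher change in V16D. The androgen-repressed genes CAMK2N1 (-1.035), OPRK1 (-1.185) and CXCR7 (-0.60) had the lower change in MR49F.

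In the other lists and the groups by DHT response, the larger positive differences were those of DUSP27 (1.345), KCNMA1 (1.025), IFI44 (1.02), MAK (0.92), ELOVL5 (0.85) and PER1 (0.79). IFI44 was at only 0.99 to 1.77 CPM in MR49F, where its change was not called, and its interaction had an adjusted p of 0.0393. MAK has the overlap on the other strand given above. Smaller positive ones were those of EDEM1 (0.50), SLC7A11 (0.455), CDC42EP3 (0.42), NFKBIA (0.36), ACACA (0.35), TSC22D3 (0.34), HERPUD1 (0.33), DDIT4 (0.325), CYTH1 (0.305), FN1 (0.29), SLC3A2 (0.285), TXNRD1 (0.28) and ABCC1 (0.21). Negative differences were those of HIST1H2BD (-0.67), HIST1H2BK (-0.35), HSPA8 (-0.32), TP53INP1 (-0.22) and HOXB13 (-0.20). EDEM1 and SLC7A11 rose in MR49F and fell in V16D, and HSPA8 did the reverse.

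Of 33 genes called with opposite signs in the lines, 26 were higher and 7 lower with enzalutamide in MR49F. The largest differences among those outside the naming rule, picked by size after their values were seen, were those of TARP (3.803), GRIN3A (2.06), TENM1 (1.73), TMEFF2 (1.67), NPR3 (1.565) and CHST2 (-1.40).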

How the results depend on the processing

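The count of genes changed, 1181 (537 higher, 644 lower), moved by less than 1.5 times with DESeq2 size factors, with DESeq2's Wald test, with scaling by library totals alone, and with the filter on low counts dropped or made stricter (10 counts required in each library). Library totals moved the split to 718 higher and 498 lower, with the median of all genes at 0.04. The count moved further under limma-voom with sample quality weights (2883, with 1395 higher and 1488 lower), the fit of all 12 full serum samples (2558, with 1139 and 1419), limma on log2(FPKM + 1) (566, with 320 and 246), limma on log2(FPKM + 0.1) (527, with 309 and 218), limma on log2(FPKM + 1) with no filter (640, with 282 lower), and an equal-variance test of both groups on log2(FPKM + 1) after a variance filter (389, with 210 and 179). Leaving out 1 library gave 406 to 2533 genes, 165 to 1132 higher and 241 to 1401 lower: 2533 without vehicle replicate 1, 642 without vehicle replicate 2, and 453, 455 and 406 without enzalutamide replicates 1, 2 and 3. A fit without 1 sample has fewer samples to estimate the spread from, and the cause of the rise without vehicle replicate 1 was not tested. Without that library, DESeq2's Wald test called 1315 genes and limma on log2(FPKM + 1) 856, both chosen as alternatives after seeing the data, against 2533 in edgeR. The difference between the lines was called for 1006 genes, and for 1523 without MR49F vehicle replicate 1.

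The labels number the replicates 1 to 3 in both groups, but deviations of samples with the same number correlated at only 0.003 to 0.048, so the numbers were not taken as pairs. With the replicate block, 1235 genes were called (550 higher, 685 lower), and 973 for the difference between the lines. Among the named genes and lists, no alternative changed the direction of a called value. The repeats of the stripped-serum comparisons in FPKM were chosen after seeing the data. TENM1, named outside the rule, had a change of the other sign in FPKM. Calls were lost most often in the equal-variance test (60 values), with limma on FPKM (30 to 38) and without an enzalutamide library (32 to 36), and gained most often with quality weights (16) and without vehicle replicate 1 (13). Depth limits genes near 1 CPM, such as RSAD2, INHBA and AKR1C1, whose intervals are wide.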
